A study of Homo sapiens with 6 samples.

Results

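Fibronectin and 9 collagen chains were followed in the RNA of A431CT and Dsg2KO cells. The 10 genes are FN1, COL1A1, COL3A1, COL4A1, COL4A2, COL6A1, COL6A2, COL7A1, COL12A1 and COL18A1, and they were taken by symbol from a table of 21462 genes, which holds all 10. A431 is a human keratinocyte line from an epidermoid carcinoma. A431CT are its control cells, and Dsg2KO cells carry a CRISPR/Cas9 edit of DSG2, the gene of the desmosomal cadherin Desmoglein-2. Both lines were obtained as a gift from another laboratory and gave 3 biological replicates each, and the labels name no treatment. The sources used here do not say whether the edited line is a single clone, so all 3 Dsg2KO libraries may share what is particular to that line. The comparison asks whether matrix genes are expressed at other levels when Dsg2 is lost.

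Fibronectin is a large secreted glycoprotein that cells stretch into fibrils through integrins, and collagens are secreted trimers with a triple helix. Fibrillar collagens such as types I and III give tissues tensile strength, type IV collagen forms the sheet-like network of the basement membrane, and type VII collagen forms the anchoring fibrils that tie the epidermal basement membrane to the dermis. Keratinocytes contribute type IV and type VII chains to the basement membrane, while types I, III and VI are mainly products of fibroblasts. Type XII collagen sits on the surface of type I fibrils, and type XVIII is a basement membrane proteoglycan whose end fragment is endostatin.

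Libraries held between 12845719 and 16255692 gene counts. Counts were scaled to CPM, which is the counts of a gene scaled to a common library size with TMM factors, and a floor of 3 counts lay between 0.184 and 0.236 CPM. Exact intervals on counts and the floor cover counting error only. The confidence intervals of fold changes come from the edgeR fit and include the spread between libraries. DSG2 checked the labels, at 323 ± 6.08 CPM (SD, n = 3) in A431CT cells and 51.9 ± 2.88 CPM in Dsg2KO cells (log2 fold change -2.64, SE 0.05, edgeR adjusted p = 1.29e-14). Of 10 keratinocyte markers 8 passed the low-count filter, and by the adjusted p 3 were higher in Dsg2KO cells (EGFR, CDH1 and DSP) and 3 lower (KRT5, KRT6A and SFN). Over all 12857 genes tested, 29.6% passed by the adjusted p alone, in either direction. KRT6A passed both thresholds (8.44 and 4.12 CPM, log2 fold change -1.03, adjusted p = 5.62e-04), and SFN was at 792 and 576 CPM (-0.46, adjusted p = 2.90e-07). The summed level of the list, most of it EGFR at 8451 and 9134 CPM, was between 10580 and 11326 CPM in A431CT and between 11281 and 11696 CPM in Dsg2KO libraries. KRT14 and PKP1 did not pass the low-count filter. Fibroblast and mesenchymal markers summed to between 2.48 and 3.69 CPM in A431CT and between 2.45 and 5.44 CPM in Dsg2KO libraries. Of those 10 markers only VIM passed the low-count filter, and COL1A2 and PDGFRA had 0 counts in every library. Endothelial and blood markers, 6 genes of which 3 passed the filter, summed to between 8.68 and 11.6 CPM in A431CT and between 15.4 and 15.8 CPM in Dsg2KO libraries. HBB was at 0 counts throughout, and CDH5 (log2 fold change 0.76, adjusted p = 0.0035) and PECAM1 (0.54, adjusted p = 0.0466) were higher in Dsg2KO cells. The part of these markers in the results was not tested. In bulk RNA, fewer cells that express a gene and less RNA per cell cannot be told apart.

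The sequence just upstream of the genes is shown for COL12A1 and COL7A1, the pair that passed both thresholds of the study, for FN1, and for the COL4A1 and COL4A2 pair. The stretches upstream of COL12A1, COL7A1 and FN1 end at the outermost annotated start of the gene (GENCODE version 44). The fourth holds the 100 bases between the outermost start of COL4A1 and the first base of the next annotated COL4A2 exon, at which a COL4A2 transcript begins, while another COL4A2 transcript starts upstream, inside COL4A1, and spans the stretch as intron. The stretches hold no annotated exon and are from the hg38 build. Each is read 5′ to 3′ on the strand of the gene, and the stretch between COL4A1 and COL4A2 on the strand of COL4A2. Capitals mark matches to motifs, which were searched on both strands. The GC box was searched as GGGCGG. The CCAAT box was searched under its own letters. The TATA box was searched as TATAAA, and the core of the cyclic AMP response element as TGACGTC. The NF-κB consensus was the further motif in capitals. No AP-1 site (TGANTCA) was in any of the 4 stretches. The COL12A1 stretch covers chr6:75206268-75206517 on the minus strand, that of COL7A1 chr3:48595330-48595579 on the minus strand, that of FN1 chr2:215436074-215436252 on the minus strand, and the one between the type IV genes chr13:110307158-110307257 on the plus strand.
COL12A1: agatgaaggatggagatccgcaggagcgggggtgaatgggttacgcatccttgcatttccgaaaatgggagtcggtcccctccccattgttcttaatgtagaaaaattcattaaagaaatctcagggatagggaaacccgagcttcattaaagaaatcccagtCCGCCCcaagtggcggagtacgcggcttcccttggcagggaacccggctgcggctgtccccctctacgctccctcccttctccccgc
COL7A1: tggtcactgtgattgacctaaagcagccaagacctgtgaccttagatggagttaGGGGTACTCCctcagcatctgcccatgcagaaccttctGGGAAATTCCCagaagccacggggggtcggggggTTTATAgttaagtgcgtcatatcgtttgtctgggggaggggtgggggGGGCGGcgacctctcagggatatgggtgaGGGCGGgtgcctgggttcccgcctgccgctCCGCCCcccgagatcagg
FN1: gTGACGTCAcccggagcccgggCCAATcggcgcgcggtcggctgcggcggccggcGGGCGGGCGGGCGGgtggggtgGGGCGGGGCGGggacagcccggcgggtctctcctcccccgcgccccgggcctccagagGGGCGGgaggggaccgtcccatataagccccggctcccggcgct
COL4A1-COL4A2: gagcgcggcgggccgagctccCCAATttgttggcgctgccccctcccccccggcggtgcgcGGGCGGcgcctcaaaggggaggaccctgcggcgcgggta

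The stretches differ in base composition. GC content was 55.2% upstream of COL12A1 with 14 CpG, 60.8% upstream of COL7A1 with 11 CpG, 82.1% in the 179 bases upstream of FN1 with 27 CpG, and 78% in the 100 bases between COL4A1 and COL4A2 with 14 CpG. The NF-κB consensus matched at 3 places upstream of COL7A1, and these included matches that overlap each other. It matched nowhere in the other stretches printed. The 6 GC boxes and both matches to the cyclic AMP core upstream of FN1 also included overlaps. The same motifs were searched in 35116 RefSeq promoter windows of 300 bases. These windows run past the RefSeq start and differ from the printed stretches in length. Their shares are therefore no direct background for the stretches. A GC box was in 45% of the windows, a CCAAT box in 34.6%, a TATA box in 11.5%, the NF-κB consensus in 11.3%, an AP-1 site in 7.71%, and the cyclic AMP core in 3.45%. RefSeq windows were given for 7 of the 10 genes, 8 windows in all, and of these all 8 held a GC box, 3 a CCAAT box, 3 a TATA box, 2 the NF-κB consensus, 1 the cyclic AMP core and 0 an AP-1 site. The 2 with an NF-κB match belong to COL7A1 and COL6A2. The windows of COL4A1 and COL4A2 share bases, so their CCAAT box is the same one. A match describes the letters of a window and is no evidence of binding.

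Of the 10 genes, COL12A1 and COL7A1 were lower in Dsg2KO cells and passed both thresholds, that is with an adjusted p below 0.05 and a fold change on the log2 scale of at least 0.5 in size. COL4A1 and COL4A2 were higher with an adjusted p below 0.05 but a fold change under the minimum. FN1 was higher in every Dsg2KO library than in any A431CT library and missed the adjusted p, and COL1A1 did not separate the groups. COL3A1, COL6A1, COL6A2 and COL18A1 never exceeded 23 counts in a library and did not pass the low-count filter. The 2 genes past both thresholds stand among 6 tested, and over all 12857 genes tested 6.03% passed (2.99% higher and 3.03% lower). By the adjusted p alone, 2 of the genes were higher and 2 lower, where 29.6% of all genes tested passed. Libraries of the groups did not overlap for 5 of the 6, which was the case for 42.6% of all genes tested. The median log2 fold change of the 6 was 0.18, and that of all genes tested was -0.0048. The 6 passed a filter on counts, so these figures describe them and not the 10 genes.

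**Figure D1:**
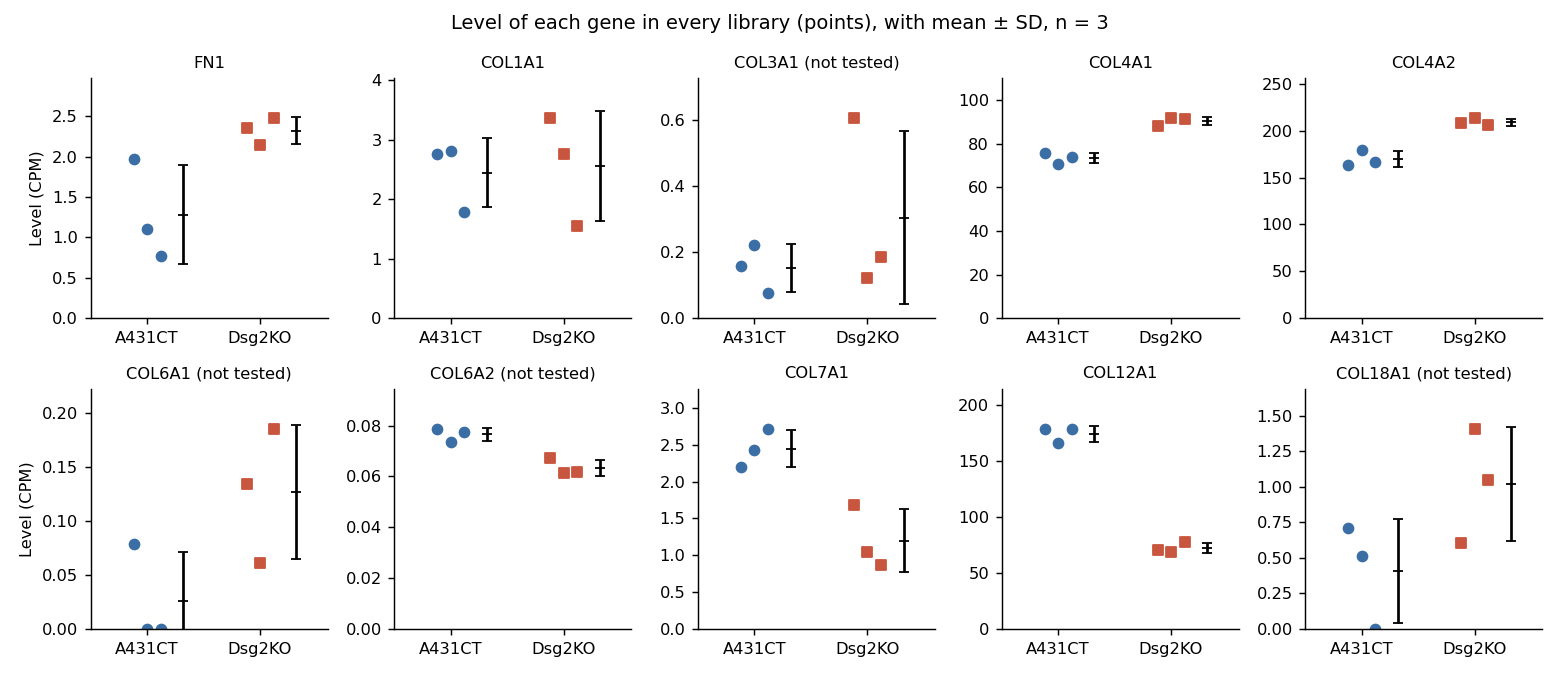
Level of each of the 10 genes in CPM (vertical axes start at 0 and differ between panels) in the 3 A431CT libraries (circles) and the 3 Dsg2KO libraries (squares), with the mean ± SD beside them. COL12A1 averages 174 CPM in A431CT and 72.1 CPM in Dsg2KO cells, COL4A2 averages 170 and 209 CPM, and the COL6A2 points stand for 1 count in every library, so their spread is only that of the library sizes.

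COL12A1 encodes the chain of type XII collagen, which lies along fibrils of type I collagen. Among the 6 genes tested it had the largest change and the smallest p-value. The A431CT libraries held 2262, 2251 and 2299 of its reads and the Dsg2KO libraries 1045, 1124 and 1250, or 178, 166 and 178 CPM against 70.1, 68.8 and 77.3 CPM. All 3 Dsg2KO libraries were far below the lowest A431CT library, and the spread within each group was small beside the gap. Mean levels were 174 ± 6.99 and 72.1 ± 4.58 CPM (SD, n = 3 each), so that Dsg2KO cells held 41.4% of the A431CT level. The log2 fold change was -1.27 (SE 0.05, 95% confidence interval -1.38 to -1.16) with an adjusted p of 3.96e-10 in edgeR's quasi-likelihood test, and by p-value the gene ranked 6 among all genes tested. It lies on chromosome 6 (75084326 to 75206267, minus strand, GENCODE on hg38), where its 50 nearest tested genes, within 12.5 Mb, centred on a median of -0.18 on the log2 scale, with 40 below 0 and 10 above. With the median of its neighbours taken off in the edgeR fit, the log2 fold change of COL12A1 was -1.09 (adjusted p = 2.40e-09). That step subtracts a fixed value, taken as known without error, so its p-value says nothing about the neighbourhood. The part of the neighbourhood in the COL12A1 change was not tested. Over the 14 other settings tried the fold change of COL12A1 lay between -1.33 and -1.09, and its adjusted p stayed below 0.05 in each.

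COL7A1 encodes the chain of type VII collagen, the collagen of anchoring fibrils. It was a weakly expressed gene in both lines, with 28, 33 and 35 counts in the A431CT libraries against 25, 17 and 14 in the Dsg2KO libraries. In CPM these were 2.20, 2.43 and 2.71 against 1.68, 1.04 and 0.866. The groups did not overlap, although the nearest library to Dsg2KO replicate 1 was A431CT replicate 1. Mean levels were 2.45 ± 0.256 and 1.19 ± 0.427 CPM, or 48.8% of the A431CT level in Dsg2KO cells. The log2 fold change was -1.04 (SE 0.32, 95% confidence interval -1.72 to -0.36, adjusted p = 0.0225). The call depended on single libraries. The adjusted p was 0.0538 without A431CT replicate 2, 0.0733 without A431CT replicate 3, 0.0822 without Dsg2KO replicate 2 and 0.0975 without Dsg2KO replicate 3, while the log2 fold change stayed between -1.35 and -0.85 over all settings. COL7A1 lies on chromosome 3 (48564073 to 48595329, minus strand), and the median of its 50 neighbours was 0.0045.

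COL4A1 and COL4A2 encode the chains of the most widespread type IV collagen, in which a trimer holds both. Each was moderately higher in Dsg2KO cells. COL4A1 was at 75.6, 70.7 and 73.7 CPM in A431CT cells (961, 959 and 950 counts) and at 88.2, 91.5 and 91.1 CPM in Dsg2KO cells (1314, 1496 and 1473 counts). COL4A2 was at 164, 179.8 and 167 CPM in A431CT cells (2081, 2438 and 2154 counts) and at 209, 213 and 206 CPM in Dsg2KO cells (3110, 3485 and 3328 counts). For both genes every Dsg2KO library was above every A431CT library. COL4A1 averaged 73.3 ± 2.45 and 90.2 ± 1.82 CPM, a log2 fold change of 0.30 (SE 0.05, 95% confidence interval 0.20 to 0.40, adjusted p = 2.34e-04). COL4A2 averaged 170 ± 8.50 and 209 ± 3.75 CPM, a log2 fold change of 0.30 (SE 0.04, 95% confidence interval 0.21 to 0.39, adjusted p = 1.11e-04). Both were 1.23-fold higher, which is below the minimum set for a call, and both intervals end below that minimum. The fold change lay between 0.27 and 0.32 for COL4A1 and between 0.27 and 0.34 for COL4A2 over the other settings, and neither adjusted p came above 0.05.

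The genes lie head to head on chromosome 13, COL4A1 at 110148963 to 110307157 on the minus strand and COL4A2 at 110305812 to 110513209 on the plus strand, counted from their outermost annotated ends, and their annotated exons share no base. Their 50 neighbours had a median log2 fold change of 0.02, 27 above 0 and 23 below. Because 1 trimer holds both chains, their ratio within a library was compared too, which needs no scaling between libraries. COL4A1 had 0.462, 0.393 and 0.441 counts per COL4A2 count in the A431CT libraries against 0.423, 0.429 and 0.443 in the Dsg2KO libraries, and the groups overlapped. The mean log2 ratio was -1.21 ± 0.119 and -1.21 ± 0.034 (SD, n = 3), with a difference of 0.00096 (exact two-sided permutation p = 1.0, where 3 against 3 cannot go below 0.1). Per kilobase of annotated exon the ratio was between 0.517 and 0.607 in A431CT cells and between 0.555 and 0.582 in Dsg2KO cells. This ratio of RNA rests on merged exon lengths and does not measure how many of each chain a trimer holds.

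**Figure D2:**
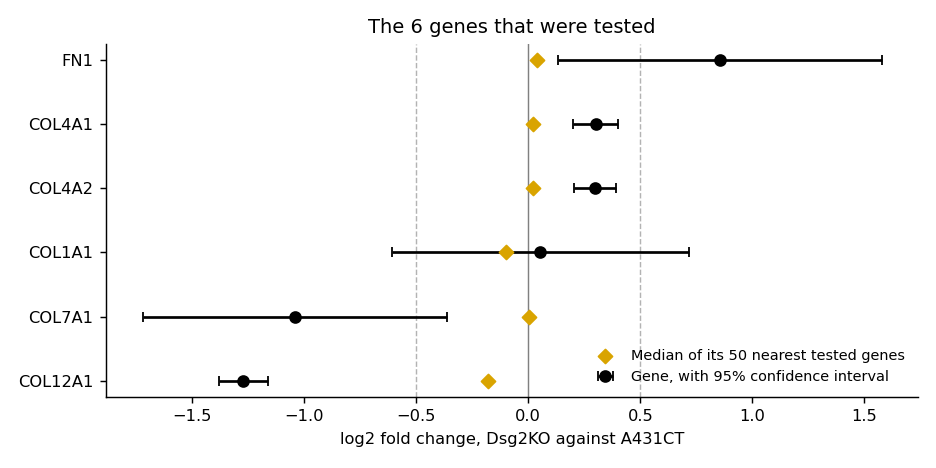
log2 fold change of Dsg2KO against A431CT for the 6 genes that were tested (black circles, bars are 95% confidence intervals), with the median of the 50 nearest tested genes of each (diamonds) and dashed lines at the fold change minimum of 0.5 in each direction. COL12A1 (-1.27) and COL7A1 (-1.04) lie beyond the lower line, COL4A1 and COL4A2 (0.30 each) lie between the lines, and the wide intervals of FN1, COL1A1 and COL7A1 belong to genes with few counts.

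FN1, the gene of fibronectin, was expressed at a low level in both lines. It had 25, 15 and 10 counts in the A431CT libraries against 35, 35 and 40 in the Dsg2KO libraries, which are 1.97, 1.11 and 0.775 CPM against 2.35, 2.14 and 2.47 CPM. The Dsg2KO libraries were all higher and close together, and the A431CT libraries were spread, with replicate 1 near the Dsg2KO libraries. Mean levels were 1.28 ± 0.615 and 2.32 ± 0.168 CPM, a 1.81-fold difference with a 95% confidence interval of 1.10 to 2.98. On the log2 scale this was 0.86 (SE 0.34), with an unadjusted p of 0.0232 and an adjusted p of 0.0702, so FN1 did not pass the test. Summed over libraries there were 50 counts in A431CT and 110 in Dsg2KO cells, a ratio of 1.82 after scaling with an exact interval of 1.29 to 2.59 for counting error alone.

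The FN1 call turned on the setting. It passed with at least 10 counts required in every library (0.86, adjusted p = 0.0407), with edgeR's likelihood ratio test (0.86, adjusted p = 0.0337) and without A431CT replicate 1 (1.29, adjusted p = 0.0205). It did not pass with DESeq2 (adjusted p = 0.116), and without A431CT replicate 3 the fold change was 0.60 (adjusted p = 0.23). FN1 was higher in Dsg2KO cells under every setting tried. It lies on chromosome 2 (215360440 to 215436073, minus strand), where the 50 neighbours had a median of 0.04, 31 above 0 and 19 below.

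COL1A1 and COL3A1 encode chains of the fibrillar collagens of types I and III. COL1A1 had 35, 38 and 23 counts in the A431CT libraries against 50, 45 and 25 in the Dsg2KO libraries, or 2.75, 2.80 and 1.78 CPM against 3.35, 2.75 and 1.55 CPM. The groups overlapped, and the highest and the lowest library were both Dsg2KO. Means were 2.45 ± 0.574 and 2.55 ± 0.921 CPM, with a log2 fold change of 0.05 (SE 0.31, 95% confidence interval -0.61 to 0.72, adjusted p = 0.92), an interval wide enough to hold a change past the fold minimum in either direction. The sign of this value changed without A431CT replicate 3 (-0.13), without Dsg2KO replicate 1 (-0.18) and without Dsg2KO replicate 2 (-0.0060). COL1A1 is on chromosome 17 (50184101 to 50201632, minus strand). COL1A2, the gene of the other chain of type I collagen, had 0 counts in all 6 libraries.

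COL3A1 on chromosome 2 (188974373 to 189012746, plus strand) had 2, 3 and 1 counts in the A431CT libraries against 9, 2 and 3 in the Dsg2KO libraries. Of its 14 Dsg2KO counts, 9 came from replicate 1, and the other libraries were all at or under the floor of 3 counts. The sums of 6 and 14 counts gave a ratio of 1.93 with an exact interval of 0.696 to 6.12 for counting error alone, so a difference was not detectable at this depth. In the fit without a low-count filter the log2 fold change was 0.94 (SE 0.98, adjusted p = 0.57).

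COL6A1, COL6A2 and COL18A1 lie together near the end of chromosome 21. COL6A1 and COL6A2 encode chains of type VI collagen, which forms beaded microfibrils, and both were barely detected. COL6A1 (45981770 to 46005050, plus strand) had 1, 0 and 0 counts in the A431CT libraries against 2, 1 and 3 in the Dsg2KO libraries. COL6A2 (46098112 to 46132848, plus strand) had 1 count in every library. Both were at or under the floor of 3 counts in all libraries, so no fold change is given.

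COL18A1, the gene of type XVIII collagen (45405165 to 45513720, plus strand), had 9, 7 and 0 counts in the A431CT libraries against 9, 23 and 17 in the Dsg2KO libraries. In CPM these were 0.708, 0.516 and 0 against 0.604, 1.41 and 1.05, so Dsg2KO replicate 1 was below A431CT replicate 1 and the groups overlapped. The sums of 16 and 49 counts gave a ratio of 2.53 (exact interval 1.41 to 4.77, counting error alone), and without a low-count filter the log2 fold change was 1.32 (SE 0.62, adjusted p = 0.13). Single libraries moved this value. COL18A1 passed the filter with certain libraries left out, and its log2 fold change was then 0.75 (adjusted p = 0.331) without A431CT replicate 3, the library at 0 counts, 1.93 (adjusted p = 0.0912) without A431CT replicate 1, 1.52 without A431CT replicate 2 and 1.57 without Dsg2KO replicate 1. Its exons share 1563 bases with those of SLC19A1 on the opposite strand. That folate carrier gene was at 89.5 CPM in A431CT and 119 CPM in Dsg2KO cells (log2 fold change 0.41), and whether reads were counted by strand is not given in the sources used here, so reads from the shared bases cannot be told apart. Most tested genes on this stretch of chromosome 21 were higher in Dsg2KO cells. The 50 tested genes nearest to COL18A1 had a median log2 fold change of 0.42, with 46 above 0 and 4 below. Of these 50, 16 were called higher and 0 lower. Over all genes tested 49.09% were above 0, 2.99% were called higher and 3.03% lower. The part of this stretch and of SLC19A1 in the COL18A1 counts was not tested.

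**Figure D3:**
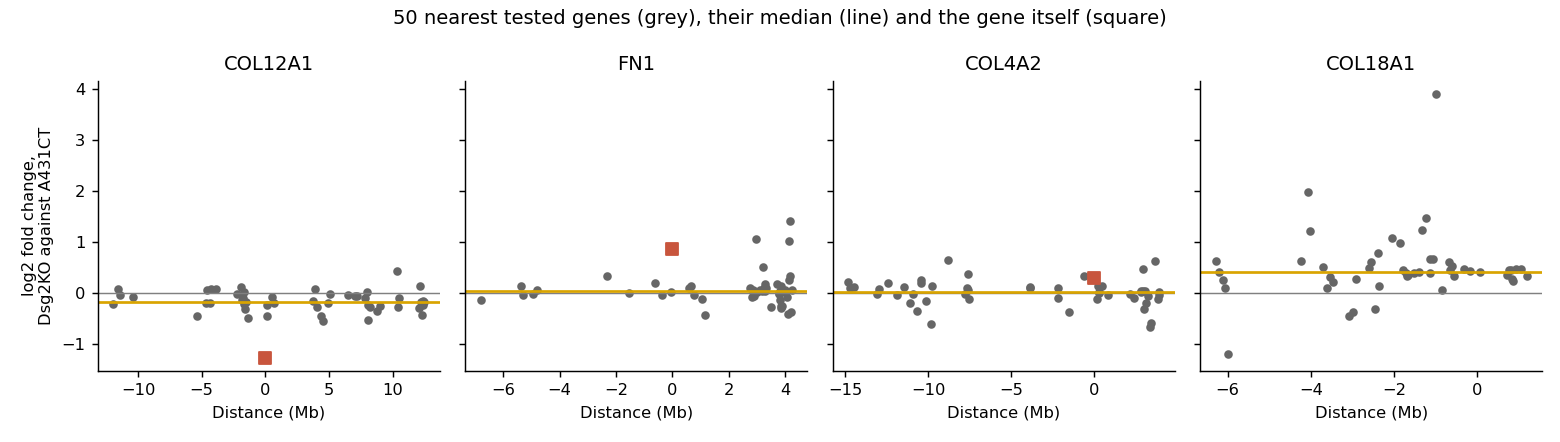
log2 fold change of Dsg2KO against A431CT (vertical axis) of the 50 tested genes nearest to COL12A1, FN1, COL4A2 and COL18A1 (grey points) by their distance in Mb, with their median (horizontal line) and the gene itself where it was tested (square). The medians are -0.18 around COL12A1, 0.04 around FN1, 0.02 around COL4A2 and 0.42 around COL18A1, and COL12A1 lies below all of its neighbours.

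Set per kilobase of merged annotated exon, the order of the chains changed between the lines. In A431CT cells COL12A1 was at 9.23 ± 0.370 CPM per kilobase, COL4A2 at 8.83 ± 0.441 and COL4A1 at 5.00 ± 0.167 (SD, n = 3). COL12A1 and COL4A2 overlapped there, and COL4A1 was below both in every library. In Dsg2KO cells COL4A2 was at 10.9 ± 0.194 CPM per kilobase, COL4A1 at 6.16 ± 0.124 and COL12A1 at 3.82 ± 0.243, with no overlap among the 3 genes. COL1A1, COL7A1 and FN1 were far lower. In that order they had 0.272 ± 0.0638, 0.220 ± 0.0230 and 0.0745 ± 0.0357 CPM per kilobase in A431CT libraries, against 0.283 ± 0.102, 0.107 ± 0.0384 and 0.135 ± 0.00974 in Dsg2KO libraries. Exon lengths were those of all annotated exons of a gene merged, which may be longer than the transcripts these cells make. The order of different genes within a line, and the overlap of COL12A1 and COL4A2 in A431CT cells, rest on these lengths.

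Among all 44 collagen genes of the table, 17 were at or under the floor of 3 counts in every library and 2 had no count at all. The counts on the collagen genes summed to 642, 642 and 639 CPM in A431CT libraries, against 565, 569 and 570 CPM in Dsg2KO libraries. COL12A1 made up 27.7%, 25.8% and 27.9% of them in A431CT libraries against 12.4%, 12.1% and 13.5% in Dsg2KO libraries. COL4A2 made up 25.5%, 28.0% and 26.1% and then 36.9%, 37.5% and 36.1%. COL12A1 and COL4A2 thus had similar shares of the collagen counts in A431CT cells and well separated ones in Dsg2KO cells. COL4A1 went from 11.8%, 11.0% and 11.5% to 15.6%, 16.1% and 16.0%. With COL17A1, the hemidesmosome collagen of keratinocytes, these genes held between 85.5% and 87.4% of the collagen counts in A431CT and between 83.6% and 84.1% in Dsg2KO cells. Shares of counts favour long transcripts and are not shares of molecules, and a share falls when another rises.

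**Figure D4:**
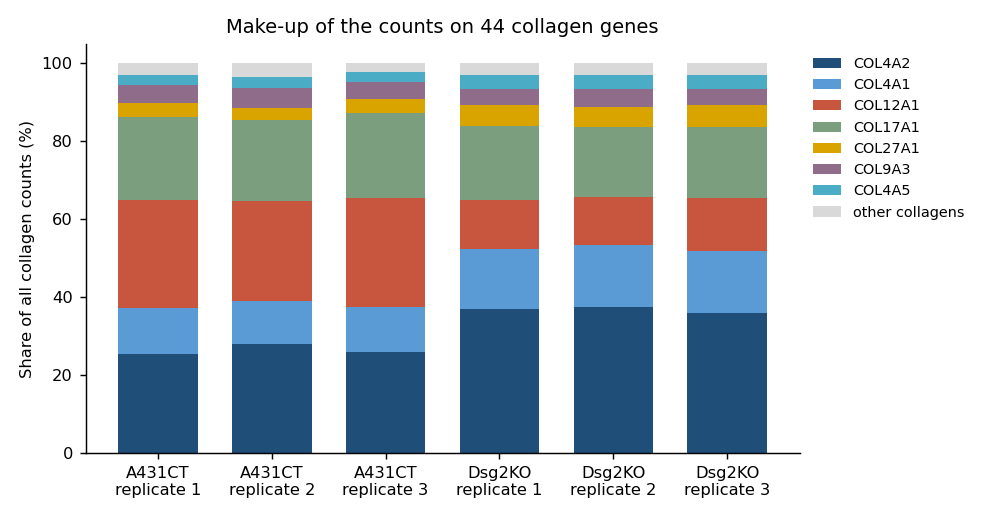
Share of all counts on 44 collagen genes, in percent, taken by 7 genes and by all others in each of the 6 libraries (1 stacked bar per library). COL12A1 takes between 25.8% and 27.9% of the counts in A431CT and between 12.1% and 13.5% in Dsg2KO libraries, and COL4A2 takes the largest share in every Dsg2KO library.

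Of the 35 collagen genes outside the 10, 8 were tested and 1 passed both thresholds. COL24A1, a minor fibrillar collagen, fell from 1.78 ± 0.476 to 0.563 ± 0.205 CPM (counts of 27, 27 and 16 against 5, 12 and 10), with a log2 fold change of -1.64 (SE 0.40, adjusted p = 0.00584). By the adjusted p alone 2 were higher and 3 lower, and the median of the 8 was -0.13. Over all genes tested 6.03% passed both thresholds and 29.6% the adjusted p alone. COL17A1 had the highest level of all collagens per kilobase of merged annotated exon. It was lower in Dsg2KO cells, at 136 ± 3.73 and 105 ± 3.19 CPM (log2 fold change -0.38, SE 0.04, adjusted p = 1.35e-05). COL27A1, a fibrillar collagen, was higher, at 22.2 ± 1.60 and 30.4 ± 1.45 CPM (0.46, SE 0.08, adjusted p = 4.79e-04), and COL9A3, a chain of type IX collagen, was lower (-0.29, SE 0.08, adjusted p = 0.0159). COL4A5 and COL4A6 are a second head-to-head pair of type IV genes, on the X chromosome. COL4A5 was at 17.1 ± 0.844 and 20.6 ± 0.429 CPM (0.27, SE 0.08, adjusted p = 0.0253), and COL4A6 at 3.03 ± 0.517 and 4.53 ± 0.584 CPM (0.58, SE 0.22, adjusted p = 0.0607), which missed the threshold. Their count ratio was 6.36, 4.67 and 6.21 in A431CT and 4.69, 5.06 and 4.04 in Dsg2KO cells, a log2 difference of -0.32 (exact two-sided permutation p = 0.3).

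The genes that modify, fold and export collagen chains were mixed in direction. Both thresholds were passed by 6.03% of all genes tested, and the adjusted p alone by 29.6%. Of 22 listed genes 18 were tested, and 0 passed both thresholds as higher and 1 as lower. By the adjusted p alone 5 were higher and 5 lower, and the median was -0.03. The lower one was PLOD2, the lysyl hydroxylase that prepares the collagen ends for crosslinking, at 84.2, 82.9 and 77.4 CPM in A431CT libraries against 48.8, 45.0 and 45.6 CPM in Dsg2KO libraries. The Dsg2KO libraries were all lower (log2 fold change -0.81, SE 0.06, adjusted p = 1.00e-07), and the call held under all 14 settings that kept the fold minimum.

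Among the genes for procollagen processing and crosslinking, 10 of 16 were tested, 2 passed both thresholds as higher and 1 as lower, and the median was 0.16. The share past both thresholds over all genes tested was 6.03%. TGM2, the transglutaminase that crosslinks matrix proteins and also helps cells bind fibronectin, was at 51.6, 52.7 and 47.4 CPM in A431CT and 128, 124 and 138 CPM in Dsg2KO cells (log2 fold change 1.36, SE 0.06, adjusted p = 4.63e-10). Every Dsg2KO library exceeded the highest A431CT library by a wide margin. LOXL2, a lysyl oxidase that crosslinks collagen, rose from 42.1 ± 3.80 to 67.3 ± 3.56 CPM (0.67, SE 0.07, adjusted p = 4.35e-06), and TLL2, a protease related to the procollagen C-proteinase, fell from 1.71 ± 0.275 to 0.634 ± 0.130 CPM (-1.42, SE 0.36, adjusted p = 0.00781).

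Of 18 receptors for fibronectin and collagen 12 were tested, and 0 passed both thresholds as higher and 1 as lower. By the adjusted p alone 4 were higher and 4 lower, and the median was 0.17. Among all genes tested 6.03% passed both thresholds and 29.6% the adjusted p alone. ANTXR2, a receptor that binds type IV collagen, was at 9.52, 10.2 and 7.68 CPM in A431CT cells and at 4.63, 5.69 and 8.22 CPM in Dsg2KO cells, and the groups overlapped. Its log2 fold change of -0.56 (SE 0.20, adjusted p = 0.0445) lost the call under 5 of 14 settings, with an adjusted p between 0.113 and 0.178 without A431CT replicate 1, A431CT replicate 2, Dsg2KO replicate 1 or Dsg2KO replicate 2, and of 0.0519 with scaling by total counts. Without Dsg2KO replicate 1 the fold change was -0.39.

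Of 24 matrix proteins that bind fibronectin or collagen 8 were tested, 1 passed both thresholds as higher and 0 as lower, and the median was -0.09. Both thresholds were passed by 6.03% of all genes tested. TNC, the gene of tenascin-C, was at 2.04, 1.62 and 1.94 CPM in A431CT and 2.89, 2.88 and 3.65 CPM in Dsg2KO cells (0.75, SE 0.26, adjusted p = 0.0383). The groups did not overlap, but the call was lost whichever single library was left out (adjusted p between 0.064 and 0.153), with DESeq2 (0.0832) and with the neighbour median taken off (0.0534). The fold change itself moved little, to 0.75 with DESeq2 and 0.73 with the neighbour median taken off, and lay between 0.62 and 0.82 with 1 library left out.

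Of 20 basement membrane partners 14 were tested, and 2 passed both thresholds as higher and 1 as lower. By the adjusted p alone 5 were higher and 6 lower, and the median was -0.04. The shares over all genes tested were 6.03% for both thresholds and 29.6% for the adjusted p alone. LAMA3, a laminin chain of epidermal basement membranes, rose from 21.7 ± 3.37 to 31.4 ± 1.68 CPM (0.53, SE 0.10, adjusted p = 8.12e-04). It lay near the fold minimum and came under it without A431CT replicate 1 (0.42) or Dsg2KO replicate 1 (0.49), and with the neighbour median taken off (0.499). SMOC2, a secreted calcium-binding protein of basement membranes, fell from 9.92 ± 1.69 to 5.83 ± 0.336 CPM (-0.77, SE 0.16, adjusted p = 0.00199).

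**Figure D5:**
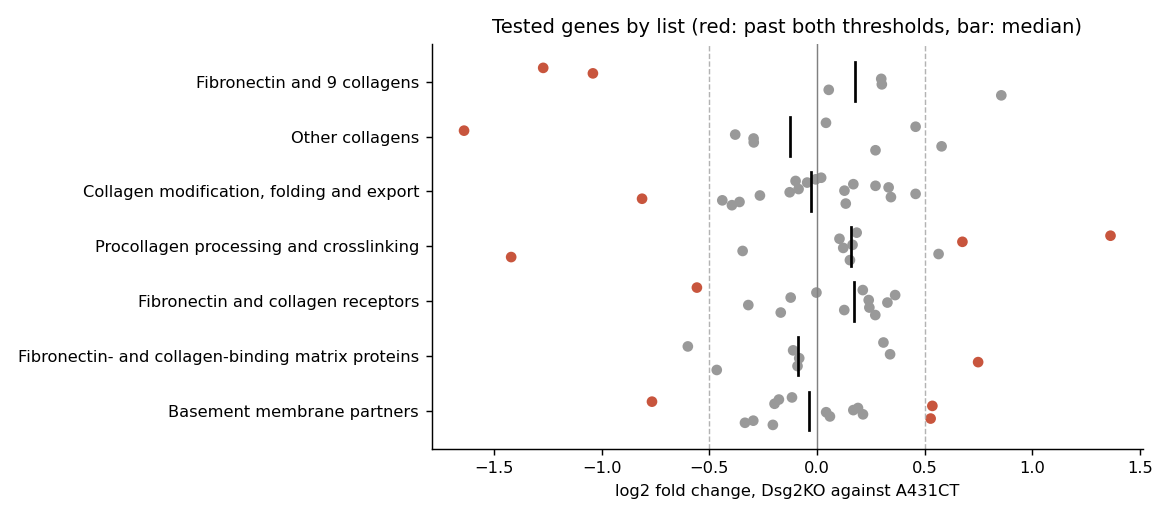
log2 fold change of Dsg2KO against A431CT (horizontal axis) for the tested genes of 7 lists (1 row per list, 1 point per gene, red where both thresholds were passed, black bar for the list median, dashed lines at 0.5 in each direction). Each list holds genes on both sides of 0, and the medians lie between -0.13 for the other collagens and 0.18 for fibronectin and the collagens followed here.

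For the pair of genes past both thresholds, the genes with the most similar profile were sought by the root mean square difference of log2 CPM, centred over the 6 libraries. Nearest to COL12A1 were KITLG, the gene of stem cell factor, at a distance of 0.0614 (log2 fold change -1.19), and TENM2, a teneurin, at 0.0721 (-1.35). They lie on chromosomes 12 and 5, away from COL12A1. Nearest to COL7A1 was HES4, a transcriptional repressor on chromosome 1, at 0.133 (-1.10). With 6 libraries in 2 groups such a distance mostly measures how alike the fold changes are.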

How the data were processed

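Total RNA of A431CT and Dsg2KO cells (3 libraries each) was sequenced as paired ends by the study. Trimming, alignment to GRCh38 and counting per gene were done by the authors with CLC Genomics Workbench 23. Their deposited table gives raw read counts for each gene symbol, with no scaling applied. The gene annotation and the strand setting of the counting are not given in the sources used here. The 10 genes and the gene lists were chosen with earlier results of these data known.

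Counts were scaled with TMM factors (0.990 to 1.01), filtered with filterByExpr (minimum count 10, minimum total 15) and tested with the quasi-likelihood F test of edgeR 4.0.16 (R 4.3.3), adjusted by Benjamini-Hochberg over 12857 genes. The thresholds of 0.05 for the adjusted p and 0.5 for the size of the log2 fold change are those of the study. The fit was tested on simulated data. Replicates of a group differed by more than counting error (chi-square per degree of freedom 2.66 to 4.20), and p-values measure only the spread between these libraries. Intervals are at 95%, exact Poisson or binomial for counts. Positions, exon lengths and neighbours came from GENCODE 44 on hg38, where 19483 of 21462 symbols were placed, and promoter windows from RefSeq on hg38.

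Named were the 10 genes, DSG2, the genes of each list past both thresholds, and the genes most similar to each of COL12A1 and COL7A1. Some genes that this rule names are not reported here. COL17A1, COL27A1, COL9A3, COL4A5, COL4A6, SLC19A1 and single markers were named after their values were seen. COL1A2 stands both among the other collagens and among the fibroblast markers, as the lists of matrix proteins and fibroblast markers share DCN and LUM. Alternatives were RLE and total-count scaling, no filter, at least 10 counts in every library, DESeq2 1.42.0, the likelihood ratio test, a replicate block, other fold minimums, each library left out, and the median of 50 neighbours taken off (medians also over 20). Proteins and the qPCR, blotting and imaging of the study were not analysed here. For these lines the study reported higher mRNA of TGM2, FN1, COL1A1 and COL3A1 in Dsg2KO cells by qPCR, and more fibronectin protein by blotting.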

Additional observations from a re-analysis of the deposited data

How the results depend on the processing

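Over all genes tested, 775 passed both thresholds, 3802 without a fold change minimum, 250 with a minimum of 1, and between 686 and 795 with 1 library left out. Of fibronectin and the 9 collagens 2 passed, 4 without a fold change minimum and between 1 and 3 with 1 library left out (1 without A431CT replicate 2, A431CT replicate 3, Dsg2KO replicate 2 or Dsg2KO replicate 3). Of the 70 tested genes in the other lists 10 passed, 43 without a minimum, 3 with a minimum of 1, and between 7 and 10 with 1 library left out. Over all genes tested 6.03% passed both thresholds and 29.6% passed without a minimum. The log2 fold change of COL1A1 lay between -0.18 and 0.32 with 1 library left out and changed sign as given above. The difference in the log2 ratio of COL4A1 to COL4A2 lay between -0.065 and 0.051 with 1 library left out, and a ratio of COL6A1 to COL6A2 was not computed, because counts of 0 to 3 give none. The same-numbered libraries of the groups deviated with correlations of -0.0027, 0.0136 and 0.0539. These values show no sign that the numbers pair the libraries but cannot exclude it, and the labels state no pairing. With the replicate block 769 genes passed, FN1 was at 0.90 (adjusted p = 0.0668) and COL7A1 at -1.06 (adjusted p = 0.0311), and no call of the 10 genes changed. Scaling by total counts gave 420 higher and 354 lower genes, against 385 and 390. COL12A1 passed both thresholds under every setting tried, and COL4A1 and COL4A2 kept their direction under every setting. FN1, COL1A1 and COL7A1 had few counts, at most 50 in a library, and COL3A1, COL6A1, COL6A2 and COL18A1 did not pass the low-count filter. The part of depth in the wide intervals of FN1, COL1A1 and COL7A1 was not tested.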
